A study of Oncorhynchus mykiss with 15 samples.

Results

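The circadian clock genes of rainbow trout (Oncorhynchus mykiss) liver are described here, copy by copy, across 5 groups of liver RNA-seq libraries. A gene was counted as a clock gene when any name the deposited table gives it is one of 26 clock gene symbols, ignoring case and a copy suffix a or b. This rule found 81 copies among the 34965 genes of the table, and 20 of the 26 symbols had at least 1 copy. The 6 symbols with no copy under that name were cry3, cry4, dbp, npas2, per3 and rorc. Of the 81 copies, 49 had a mean of at least 0.5 FPKM over the 15 libraries and were tested. The other 32 are given by the range of their means, with values printed for some of them. FPKM is the fragment count scaled by gene length and library size.

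The series describes its aim as following the trout liver under hypoxia of several lengths. Its group codes are N, H3h, H12h, H24h and R3h, each with 3 libraries, and the meaning of the letters is not given in the labels. The H codes carry times of 3, 12 and 24 h, the R code carries 3 h and N carries none. All fish were of one age, 150 days, and whole liver was frozen in liquid nitrogen and extracted with Trizol. Whether each library is a separate fish is not stated, so p-values cover only the spread between these libraries, which may be technical. The labels give no clock time of sampling. Elapsed time, condition and time of day therefore cannot be told apart in any comparison of the clock genes.

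The vertebrate clock is a loop of transcription factors. CLOCK, or its relative NPAS2, pairs with ARNTL (also called BMAL1) and switches on genes that carry E-box elements, among them the period (PER) and cryptochrome (CRY) genes, whose proteins return to the nucleus and repress that pair. A further loop runs through the nuclear receptors, with NR1D1 and NR1D2 (the Rev-erb receptors) repressing and the ROR receptors activating ARNTL. The PAR bZIP factors DBP, TEF and HLF and their competitor NFIL3 act on D-box elements and carry the rhythm to liver metabolism, and casein kinases 1 delta and epsilon phosphorylate PER proteins. In zebrafish, peripheral tissues and cell lines hold clocks that light can set directly, and per2 and a cry1 copy are known there as light-induced genes.

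Library totals ran from 45364029 to 70416280 counts, and the clock copies took 19964 to 51708 of them. Of 26 hepatocyte marker genes 25 had a mean of at least 0.5 FPKM, and their summed level lay between 38880 and 75190 FPKM, so the liver label held. One library, R3h replicate 3, was unlike the rest, with a correlation of 0.826 and 0.784 to its group mates where all other pairs within a group reached 0.856 to 0.964. In that library 16 of the 49 tested clock copies had their lowest value of all 15 libraries and 4 were at 0. FPKM is relative to the library total, whereas the fold changes below also use a TMM scaling, whose group mean factor was 0.827 in H12h, 0.905 in R3h, 0.959 in H24h, 1.22 in H3h and 1.19 in N. A log2 fold change for H12h, H24h or R3h against N therefore tends to lie above the log2 ratio of the printed FPKM means. The same holds for H12h against H3h. Positive changes come out larger and negative ones smaller in size. The median log2 fold change of all tested genes for H12h against N was -0.07 after scaling and -0.36 on log2(FPKM + 1).

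The copies were spread unevenly over the symbols. There were 9 copies of nfil3, 8 of hlf, 6 of arntl, 5 each of cry1, clock, nr1d1, nr1d2, rora and rorb, 4 each of tef, ciart and csnk1e, 3 each of per1, bhlhe40 and csnk1d, 2 each of per2 and bhlhe41, and 1 each of cry2, arntl2 and timeless. One arntl copy, 110499965, also carries the name ARNTL2. A RefSeq gene table (assembly USDA_OmykA_1.1) held 75 of the 81 identifiers, 55 of them under a locus symbol only. Where that table has a gene symbol it can differ from the deposited name. HLF 110536998 is dbpb there, RORB 100528059 is rorca, CRY1 110537182 is cry5, Nr1d2 110528196 is nr1d4b and CLOCK 110537268 is npas2, so dbp, rorc and npas2 have copies under another name. Names below are those of the deposited table, and since near-identical copies can share reads, the value of 1 copy is less sure than the sum over its symbol.

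Mean levels of the tested copies lay between 0.572 and 13.6 FPKM, with a median of 2.22 FPKM against 2.41 FPKM for all 17502 tested genes. Only 9 copies averaged at least 5 FPKM. These were 4 copies of hlf, 2 of tef, and 1 each of csnk1d, bhlhe40 and nfil3, so 7 of the 9 were output factors. Among tested copies the lowest level, 0.572 FPKM, belonged to ARNTL 110523666.

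Across the 5 groups, 2 of the 49 tested copies differed in edgeR's quasi-likelihood F-test with Benjamini-Hochberg adjustment, CRY1 110522881 and TEF 110499096. The background was 7.24 percent of all tested genes called. At an unadjusted p under 0.05 there were 15 copies, 30.6% of the 49, where the background was 29.0 percent. A likelihood ratio test in DESeq2 called 14 copies, both of these among them, which is 28.6% of the 49 where the background was 25.7 percent. The count moved with single libraries. It was 8 without R3h replicate 3, 6 without H12h replicate 3, 3 without N replicate 2 or without R3h replicate 2, 2 without N replicate 1, 0 without H12h replicate 1 or without H12h replicate 2, and 1 without any other library. The calls over all 17502 tested genes moved too. They numbered 1267 with all libraries, 2676 without R3h replicate 3 and 1851 without H12h replicate 3. They were 1754 without N replicate 2 and 2117 without R3h replicate 2, and 286 and 487 without H12h replicates 1 and 2.

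**Figure D1:**
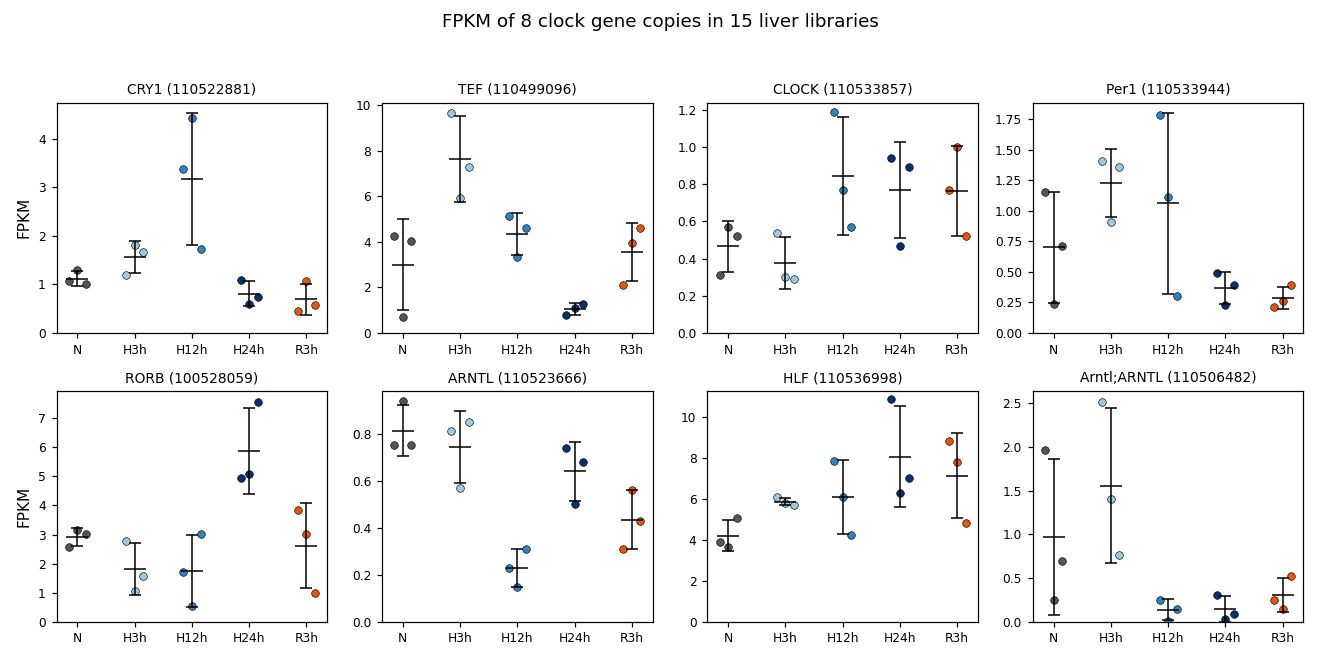
FPKM of the 8 clock gene copies with the smallest p in the test across the 5 groups (y axis, linear, from 0) in the 3 libraries of each group (x axis). Points are libraries and bars are the mean with 1 SD, n = 3. CRY1 110522881 has its highest group mean in H12h, TEF 110499096 lies at 0.77 to 1.26 FPKM in H24h, and ARNTL 110523666 lies at 0.15 to 0.31 FPKM in H12h.

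Cryptochromes are transcriptional repressors of the loop. CRY1 110522881 (chromosome 1, 38175664 to 38186421, minus strand in the deposited table, cry1b in the RefSeq table) was at 1.06, 1.29 and 1.0 FPKM in N, 1.19, 1.82 and 1.67 FPKM in H3h, 3.37, 4.42 and 1.73 FPKM in H12h, 1.09, 0.59 and 0.75 FPKM in H24h, and 0.45, 1.06 and 0.58 FPKM in R3h. The H12h libraries lay above every N, H24h and R3h library, and H12h replicate 3 lay within the H3h range. Its counts were 94 to 644 fragments a library. The 5 groups differed with an adjusted p of 0.0183, and that p became 0.0579 without H12h replicate 1 and 0.0676 without H12h replicate 2. Pairwise, the log2 fold change was 2.05 ± 0.45 (SE, adjusted p = 0.0676) for H12h against N and -2.25 ± 0.46 (adjusted p = 0.0652) for H24h against H12h, neither of which passed in edgeR. Without H12h replicate 3, the lowest H12h library of this copy, the same contrasts gave 2.41 (adjusted p = 0.00955) and -2.61 (adjusted p = 0.00874). That fit called 546 and 393 of all tested genes, where 39 and 0 were called with all libraries. The adjusted p of each contrast stayed above 0.05 in 13 of the 15 fits that left out 1 library. DESeq2 called both contrasts on all libraries.

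The most abundant cryptochrome copy followed another course. CRY1 110494045 was at 2.76, 0.52 and 1.41 FPKM in N, 7.16, 1.59 and 3.94 FPKM in H3h, 2.97, 1.56 and 1.57 FPKM in H12h, 2.87, 1.45 and 1.40 FPKM in H24h, and 3.05, 3.94 and 2.07 FPKM in R3h. The ranges of all 5 groups overlapped, and N replicate 2 was the lowest library. Its log2 fold change was 1.42 ± 0.54 for R3h against N (edgeR adjusted p = 0.123). CRY2 110499866, the other cryptochrome type of vertebrate repressors, was at 0.68, 1.34 and 0.68 FPKM in N, 0.87, 0.83 and 0.76 FPKM in H3h, 1.21, 1.52 and 0.76 FPKM in H12h, 0.92, 0.68 and 0.70 FPKM in H24h, and 0.43, 1.05 and 0.73 FPKM in R3h. Its groups overlapped too in FPKM, while on the TMM-scaled log counts every H12h library lay above every H3h library. The remaining 3 CRY1 copies averaged 0.906 to 1.02 FPKM and none had an unadjusted p under 0.05 in any comparison. Reads may not be separable between CRY1 110497857 and CRY1 110497866, which lie 443 bp apart on chromosome 2 with no gene between them.

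Period proteins are the partners of the cryptochromes. Per1 110509930, the most abundant copy, was at 3.34, 2.02 and 3.17 FPKM in N, 3.66, 6.97 and 3.56 FPKM in H3h, 2.97, 1.66 and 0.99 FPKM in H12h, 2.45, 1.11 and 1.19 FPKM in H24h, and 1.25, 2.53 and 1.40 FPKM in R3h. Every H3h library lay above every library of the other 4 groups in FPKM. On the TMM-scaled log counts, however, the H3h and H12h libraries of this copy overlapped. No comparison of this copy had an unadjusted p under 0.05. The other tested copies were picked out after their values were seen. For H24h against H12h the log2 fold change of Per1 100135905 was -1.79 ± 0.67 (edgeR adjusted p = 0.245) and that of Per1 110533944 was -1.83 ± 0.58 (adjusted p = 0.178). In both copies H12h replicate 3, at 0.67 and 0.30 FPKM, sat well below its group mates at 3.79 and 3.51 FPKM and at 1.78 and 1.11 FPKM. Without that library Per1 110533944 had a log2 fold change of -2.30 (adjusted p = 0.0234) for H24h against H12h. That fit called 393 of all tested genes, where 0 were called with all libraries. In 14 of the 15 fits that left out 1 library this contrast did not pass.

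The activators were among the less abundant clock transcripts. CLOCK 110533857 (chromosome 10, 34929550 to 35003761, minus strand), the only clock copy above the filter, was at 0.31, 0.57 and 0.52 FPKM in N, 0.54, 0.30 and 0.29 FPKM in H3h, 1.19, 0.77 and 0.57 FPKM in H12h, 0.94, 0.47 and 0.89 FPKM in H24h, and 0.77, 1.0 and 0.52 FPKM in R3h. All H12h libraries lay above all H3h libraries, while H12h replicate 3 equalled the highest N library. The log2 fold change for H12h against H3h was 1.78 ± 0.41 (edgeR adjusted p = 0.114), the smallest unadjusted p of the 49 tested clock copies in that comparison. The adjusted p across the groups, 0.0505, did not pass. It was 0.0463 with RLE scaling, 0.00135 in DESeq2 and 0.0255 without R3h replicate 3. It also passed without N replicate 2, H12h replicate 3 or R3h replicate 2, at 0.0281 to 0.0489. It did not pass without any other library, in either limma fit, with no filter on low values or with the replicate number as a block.

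Arntl 110498693, the most abundant copy of the partner gene, was at 2.56, 2.61 and 2.17 FPKM in N, 2.19, 1.57 and 1.77 FPKM in H3h, 1.31, 0.59 and 1.19 FPKM in H12h, 2.36, 1.10 and 1.09 FPKM in H24h, and 0.94, 1.60 and 0.70 FPKM in R3h. H12h and R3h libraries all lay below N libraries. The log2 fold change was -0.78 ± 0.37 (edgeR adjusted p = 0.363) for H12h against N and -0.84 ± 0.37 (adjusted p = 0.172) for R3h against N. ARNTL 110523666, singled out after its values were seen, was at 0.75, 0.94 and 0.75 FPKM in N, 0.81, 0.57 and 0.85 FPKM in H3h, 0.23, 0.15 and 0.31 FPKM in H12h, 0.74, 0.50 and 0.68 FPKM in H24h, and 0.31, 0.56 and 0.43 FPKM in R3h. Its H12h libraries lay below all N, H3h and H24h libraries. The log2 fold change was -1.34 ± 0.34 (adjusted p = 0.103) for H12h against N and 1.26 ± 0.34 (adjusted p = 0.132) for H24h against H12h in edgeR, and DESeq2 called both. ARNTL2 110497784, from the sister gene of ARNTL, was at 1.67, 0.69 and 0.81 FPKM in N, 1.79, 1.29 and 0.94 FPKM in H3h, 0.92, 0.85 and 1.05 FPKM in H12h, 1.48, 0.57 and 0.82 FPKM in H24h, and 0.84, 1.14 and 0.57 FPKM in R3h, and its groups overlapped throughout.

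The nuclear receptors of the second loop varied widely within groups. Nr1d1 110494235 was at 4.10, 2.90 and 4.54 FPKM in N, 8.65, 3.61 and 3.11 FPKM in H3h, 3.23, 1.05 and 1.52 FPKM in H12h, 3.53, 2.16 and 1.71 FPKM in H24h, and 1.67, 1.85 and 2.03 FPKM in R3h. NR1D2 100135954 was at 5.24, 3.57 and 4.15 FPKM in N, 9.06, 3.50 and 7.06 FPKM in H3h, 6.63, 4.95 and 1.35 FPKM in H12h, 9.93, 3.55 and 2.60 FPKM in H24h, and 2.69, 5.46 and 0.94 FPKM in R3h. All groups overlapped for this NR1D2 copy. For Nr1d1 the R3h libraries lay below all N and all H3h libraries, and its log2 fold change of -0.65 ± 0.43 (edgeR adjusted p = 0.341) for R3h against N did not pass. Among the other Rev-erb copies, chosen after their values were seen, NR1D2 110496425 was at 6.53, 6.53 and 5.28 FPKM in H3h and 2.59, 0.60 and 2.61 FPKM in N. Those groups were well apart, yet the log2 fold change of 1.71 ± 0.78 had an unadjusted p of 0.0452 and an adjusted p of 1.

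ROR receptors bind the same elements as Rev-erb receptors and activate. RORA 110535950 was at 0.74, 1.54 and 0.94 FPKM in N, 0.73, 0.15 and 0.50 FPKM in H3h, 0.11, 0 and 0.34 FPKM in H12h, 1.14, 0.42 and 0.58 FPKM in H24h, and 0.86, 0.42 and 0.99 FPKM in R3h. H12h was the low group, below every N, H24h and R3h library, and the log2 fold change for H12h against N was -2.49 ± 0.94 (edgeR adjusted p = 0.245). Rorb 110521482 was at 2.26, 10.8 and 4.71 FPKM in N, 2.09, 1.82 and 2.76 FPKM in H3h, 1.77, 0.65 and 4.40 FPKM in H12h, 9.17, 6.47 and 10.3 FPKM in H24h, and 8.06, 6.13 and 1.81 FPKM in R3h. Every H24h library lay above every H12h library, while N replicate 2 was the highest of all 15. For H24h against H12h the log2 fold change was 1.81 ± 0.70 (adjusted p = 0.260) for Rorb 110521482 and 1.61 ± 0.54 (adjusted p = 0.198) for RORB 100528059, a copy chosen after its values were seen.

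The PAR bZIP factor TEF gave the second copy called. TEF 110499096 (chromosome 20, 16617315 to 16632534, minus strand) was at 4.27, 0.71 and 4.03 FPKM in N, 9.65, 5.92 and 7.27 FPKM in H3h, 5.13, 3.34 and 4.59 FPKM in H12h, 0.77, 1.11 and 1.26 FPKM in H24h, and 2.12, 3.93 and 4.60 FPKM in R3h. H3h was the high group and H24h the low one, with no overlap between H24h and H3h, H12h or R3h. N replicate 2, at 0.71 FPKM, lay below even the H24h libraries, so N overlapped all groups except H3h. The overall adjusted p was 0.0359 in edgeR, on 167 to 2490 counts a library. It was above 0.05 in 10 of the 15 fits that left out 1 library, with a highest value of 0.0836 without H24h replicate 3, and lowest, 0.0141, without N replicate 2. The libraries whose removal ended the call were N replicate 3, all H3h and all H24h replicates, H12h replicates 1 and 2, and R3h replicate 1.

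No pairwise contrast of TEF 110499096 passed in edgeR with all libraries. The log2 fold change was 1.37 ± 0.47 (adjusted p = 1) for H3h against N, -2.21 ± 0.48 (adjusted p = 0.0758) for H24h against H12h and 1.77 ± 0.47 (adjusted p = 0.665) for R3h against H24h. DESeq2 called H24h against H12h, with an adjusted p of 0.00062. In edgeR that contrast passed without H12h replicate 3 (-2.28, adjusted p = 0.0439) and without R3h replicate 3 (-2.23, adjusted p = 0.0445). Those fits called 393 and 194 of all tested genes, where 0 were called with all libraries. In 13 of the 15 fits that left out 1 library the contrast did not pass. Of the 49 tested clock copies TEF 110499096 had the smallest unadjusted p for H3h against N and for R3h against H24h. The most abundant copy, Tef 110538372, was at 10.1, 2.03 and 6.05 FPKM in N, 20.2, 15.8 and 11.2 FPKM in H3h, 15.9, 11.1 and 8.77 FPKM in H12h, 6.55, 1.74 and 3.50 FPKM in H24h, and 3.09, 4.69 and 17.0 FPKM in R3h. Its H3h and H12h libraries all lay above its H24h libraries, and R3h replicate 3 stood far above its group mates. The copy had log2 fold changes of 1.41 ± 0.62 (adjusted p = 1) for H3h against N and -1.90 ± 0.63 (adjusted p = 0.194) for H24h against H12h. TEF 110502868 averaged 8.14 FPKM and had no unadjusted p under 0.05 in any comparison.

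HLF, another PAR bZIP factor, made the largest family in summed level, 34.3 FPKM over its 8 copies. HLF 110538567 was at 6.11, 7.34 and 7.85 FPKM in N, 7.63, 2.89 and 4.35 FPKM in H3h, 9.88, 17.0 and 6.91 FPKM in H12h, 12.02, 9.07 and 8.40 FPKM in H24h, and 7.27, 17.4 and 3.92 FPKM in R3h. H24h libraries were all above N libraries in FPKM, and the other groups overlapped N. HLF 110536998 (chromosome 2, 5124137 to 5132232, plus strand, dbpb in the RefSeq table) was at 3.87, 3.66 and 5.08 FPKM in N, 6.06, 5.79 and 5.71 FPKM in H3h, 7.85, 6.10 and 4.25 FPKM in H12h, 10.9, 6.29 and 7.0 FPKM in H24h, and 8.79, 7.78 and 4.80 FPKM in R3h. All H3h and H24h libraries lay above the N libraries. Its log2 fold changes were 1.08 ± 0.35 (edgeR adjusted p = 0.178) for H12h against N, 1.24 ± 0.35 (adjusted p = 0.117) for H24h against N and 1.16 ± 0.35 (adjusted p = 0.0637) for R3h against N. The last is the lowest adjusted p of the 49 tested clock copies in any pairwise comparison, and it was 0.0335, with a log2 fold change of 1.41, without R3h replicate 3. It stayed above 0.05 in 13 of the 15 fits that left out 1 library. The 4 hlf copies above 5 FPKM each had a positive log2 fold change with an unadjusted p under 0.05 for H12h against N, and the other 3 tested copies did not.

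NFIL3 represses at the D-boxes that PAR bZIP factors activate. nfil3 110523152 was at 8.22, 5.0 and 5.07 FPKM in N, 8.22, 7.84 and 5.70 FPKM in H3h, 4.51, 2.64 and 6.86 FPKM in H12h, 7.66, 3.09 and 4.66 FPKM in H24h, and 2.43, 6.92 and 7.97 FPKM in R3h. The groups overlapped, and its overall adjusted p was 0.959. The other 5 tested nfil3 copies averaged 0.739 to 1.70 FPKM. One of them, nfil3 110487280, lies inside the span of nfil3 110487279 on the same strand of chromosome 13, so their reads may not be separable.

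No copy of the bHLH repressors or the kinases passed in edgeR. Bhlhe40 110494249, from the gene also called DEC1, a repressor at E-boxes and in mammals a known hypoxia-responsive gene, was at 4.54, 9.08 and 8.32 FPKM in N, 6.26, 6.46 and 5.44 FPKM in H3h, 10.9, 2.81 and 6.83 FPKM in H12h, 7.97, 4.35 and 3.94 FPKM in H24h, and 2.70, 2.56 and 6.08 FPKM in R3h. CIART 110496017, a repressor of CLOCK and ARNTL, was at 0.49, 0.41 and 0.83 FPKM in N, 1.53, 0.97 and 0.87 FPKM in H3h, 0.82, 0.33 and 0.21 FPKM in H12h, 1.07, 0.53 and 0.58 FPKM in H24h, and 0.56, 0.77 and 0.49 FPKM in R3h. For bhlhe40 none of the 3 copies had an unadjusted p under 0.05 in any comparison, and for ciart neither tested copy did. For Bhlhe40 110494249 the log2 fold change for H12h against N was 0.35 ± 0.49 (edgeR adjusted p = 0.794), and its sign turned on log2(FPKM + 1), at -0.18, and without H12h replicate 1, at -0.22.

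Casein kinase 1 delta had the most abundant clock copy, and R3h replicate 3 decided its R3h values. The copy 110502949, named csnk1db and Csnk1d, was at 11.8, 22.5 and 16.9 FPKM in N, 12.2, 10.7 and 16.1 FPKM in H3h, 12.5, 8.81 and 10.8 FPKM in H12h, 22.8, 12.4 and 15.8 FPKM in H24h, and 10.1, 19.9 and 0.15 FPKM in R3h. CSNK1E 110486430 was at 3.26, 2.04 and 2.52 FPKM in N, 3.82, 2.44 and 3.09 FPKM in H3h, 3.03, 3.57 and 2.22 FPKM in H12h, 2.15, 0.97 and 1.96 FPKM in H24h, and 1.29, 2.15 and 0.13 FPKM in R3h. In that 1 library 11 of the 49 tested clock copies were below 20% of the mean of their group mates, a count that no other library brought above 2. On log2(FPKM + 1), limma called csnk1db 110485314 (-1.26, adjusted p = 0.0473) and CSNK1E 110538357 (-1.03, adjusted p = 0.0436) lower for R3h against N, a fit that includes that library and called 10.8 percent of all genes, and edgeR called neither.

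None of the 49 tested copies passed in any of the 7 pairwise comparisons in edgeR. An unadjusted p under 0.05 in at least 1 of them was found for 23 of the 49, or 46.9%, where the background was 50.3 percent. For H3h against N, where the background was 0.0 percent called and 2.19 percent at an unadjusted p under 0.05, 4 copies were higher and 1 lower at that level (background 0.634 percent higher and 1.56 percent lower). The 5 copies were Tef 110538372, TEF 110499096, CRY1 110494045 and NR1D2 110496425, all higher, and Rorb 110521482, lower. In all 5 the same library, N replicate 2, was the N extreme, lowest for the 4 higher copies and highest for Rorb. With 1 library left out, the log2 fold changes smallest in size were 1.046, 0.943, 0.944, 1.325 and -0.565 in the order given. The H3h and N groups did not overlap on the scaled log counts in 12 of 49 copies, 24.5%, where the background was 8.78 percent. The median log2 fold change of the 49 copies was 0.22, beside 0.00 for all tested genes. Among the lists of markers of other cell types, 1 did not overlap between H3h and N. These were the stellate markers, 12 of 16 at a mean of at least 0.5 FPKM, which summed to 63.3 to 83.8 FPKM in H3h and 41.8 to 55.7 FPKM in N. In whole liver fewer cells of a type and less RNA per cell cannot be told apart, and the part of these cells in the clock values was not tested.

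For H12h against N the background was 0.223 percent called and 14.3 percent at an unadjusted p under 0.05. Of the 49 copies 10 were higher and 3 lower at that level (background 7.96 percent higher and 6.35 percent lower), the lower ones being Arntl 110506482, ARNTL 110523666 and RORA 110535950. Arntl 110506482 averaged 0.97 FPKM in N and 1.56 FPKM in H3h, against 0.137, 0.143 and 0.307 FPKM in H12h, H24h and R3h. It passed the filter of 0.5 FPKM only through N and H3h, so its place among copies lower than those groups rests on the same values. The groups did not overlap in 12 copies, where the background was 24.5 percent, the same share. The median log2 fold change of the clock copies was 0.35 after TMM scaling and -0.15 on log2(FPKM + 1), so its sign depends on the scaling. Relative to the all-gene medians of -0.07 and -0.36 it was higher on both scales. DESeq2 called 4 copies, 8.16% where its background was 4.73 percent, with CRY1 110522881, CLOCK 110533857 and csnk1db 110499233 higher and ARNTL 110523666 lower. Cholangiocyte markers, 13 of 23 at a mean of at least 0.5 FPKM, summed to 113 to 139 FPKM in H12h and 158 to 278 FPKM in N, and endothelial markers, 3 of 4, to 7.84 to 9.38 FPKM in H12h and 5.36 to 7.06 FPKM in N. Stellate markers summed to 55.9 to 75.6 FPKM in H12h and 41.8 to 55.7 FPKM in N, just apart. No marker gene was at 0 in every library, and their part in the clock values was not tested.

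For H24h against N, 6 copies were higher and 2 lower at an unadjusted p under 0.05, where the background was 0.2 percent called and 19.7 percent at that level, 9.78 percent higher and 9.88 percent lower. The higher ones were CLOCK 110533857, NR1D2 110515629, RORB 100528059 and 3 hlf copies, and the lower ones TEF 110499096 and Arntl 110506482. The Arntl copy passed the filter only through its N and H3h levels, as given above. The groups did not overlap in 9 copies, 18.4%, where the background was 32.0 percent. The clock median was -0.07, beside -0.05 for all genes. DESeq2 called 1 copy, HLF 110536998, higher, where its background was 7.2 percent. Erythrocyte markers, 19 of 21 at a mean of at least 0.5 FPKM, summed to 535 to 1770 FPKM in H24h and 192 to 407 FPKM in N. Stellate markers summed to 56.8 to 76.4 FPKM in H24h and 41.8 to 55.7 FPKM in N. Lymphocyte markers, 6 of 10, were wholly lower, at 6.71 to 8.4 FPKM in H24h and 9.77 to 21.5 FPKM in N. No other list was apart between these groups, and their part in the clock values was not tested.

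For R3h against N, 6 copies were higher and 1 lower at an unadjusted p under 0.05, where the background was 5.34 percent called and 26.6 percent at that level, 14.2 percent higher and 12.3 percent lower. The higher ones were CLOCK 110533857, CRY1 110494045 and 4 hlf copies, and the lower one was Arntl 110498693. The groups did not overlap in 10 copies, 20.4%, where the background was 27.9 percent, and the median was -0.17, beside -0.04 for all genes. DESeq2 called 1 copy, HLF 110536998, where its background was 15.9 percent. Without R3h replicate 3 edgeR called 2 copies, HLF 110508875 (log2 fold change 1.47, adjusted p = 0.0478) and HLF 110536998 (1.41, adjusted p = 0.0335). That fit called 1141 of all 17502 tested genes. Stellate markers summed to 70.3 to 93.0 FPKM in R3h and 41.8 to 55.7 FPKM in N, the 1 list that did not overlap, and their part in the clock values was not tested.

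For H12h against H3h, 6 copies were higher and 2 lower at an unadjusted p under 0.05, where the background was 0.0171 percent called and 16.0 percent at that level, 8.82 percent higher and 7.15 percent lower. The groups did not overlap in 12 copies, where the background was 29.2 percent. The higher 6 were CLOCK 110533857, CRY1 110522881, CRY2 110499866, csnk1db 110499233 and 2 hlf copies, and the lower ones ARNTL 110523666 and Arntl 110506482. Arntl 110506482 passed the filter only through its N and H3h levels, so its lower value against H3h rests on the values that brought it in. Marker lists that did not overlap were the neutrophil (13.3 to 15.2 FPKM in H12h, 89.7 to 151 in H3h), cholangiocyte (113 to 139 in H12h, 159 to 325 in H3h), macrophage (123 to 143 in H12h, 47.9 to 109 in H3h), endothelial (7.84 to 9.38 in H12h, 6.02 to 7.52 in H3h), exocrine pancreas (0.2 to 0.39 in H12h, 1.1 to 3.78 in H3h) and hepatocyte ones (53760 to 61650 in H12h, 38880 to 48820 in H3h). Of the exocrine pancreas list only 1 of 8 genes had a mean of at least 0.5 FPKM. Marker sums are FPKM without the TMM scaling, and the part of these cells in the clock values was not tested.

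For H24h against H12h, 5 copies were higher and 6 lower, where the background was 0.0 percent called and 14.5 percent at that level, 6.5 percent higher and 8.0 percent lower. The groups did not overlap in 13 copies, where the background was 24.7 percent. The lower 6 were CRY1 110522881, TEF 110499096, Tef 110538372, NR1D2 110496425, Per1 100135905 and Per1 110533944. The higher 5 were ARNTL 110523666, RORA 110535950, Rorb 110521482, RORB 100528059 and nfil3 110486495. Other tested copies of these symbols could lie on the opposite side. The log2 fold change was positive in 3 of 4 nr1d2 copies, 1 of 3 tef copies and 1 of 5 cry1 copies, and negative in 2 of 4 arntl copies and 2 of 6 nfil3 copies. All 3 per1 copies were negative and all 3 tested rora and rorb copies positive. DESeq2 called 5 copies in this comparison and 5 for H12h against H3h, 10.2% each, where its background was 4.59 percent and 4.55 percent. Between H24h and H12h the cholangiocyte markers (170 to 226 FPKM in H24h, 113 to 139 in H12h) and lymphocyte markers (6.71 to 8.4 in H24h, 13.3 to 20.5 in H12h) did not overlap. Nor did the exocrine pancreas markers (0.47 to 0.63 in H24h, 0.2 to 0.39 in H12h), of which 1 of 8 had a mean of at least 0.5 FPKM. The part of these cells in the clock values was not tested. For R3h against H24h 1 of the 49 tested copies, TEF 110499096, had an unadjusted p under 0.05, and it was higher. The background was 0.0 percent called and 7.36 percent at that level, 5.23 percent higher and 2.14 percent lower. The groups did not overlap in 5 copies, where the background was 9.22 percent.

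**Figure D2:**
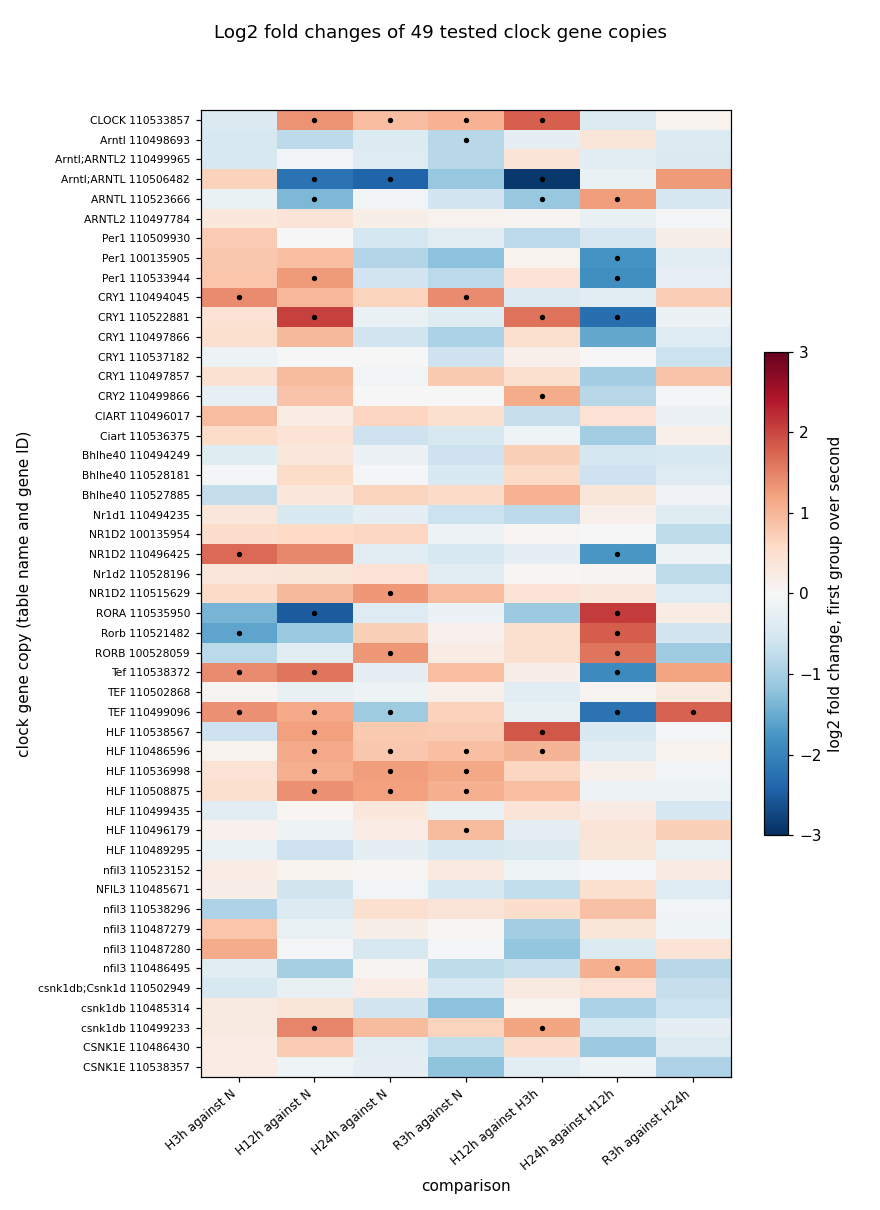
Log2 fold change (colour, scale from -3 to 3) of each of the 49 tested clock copies (rows, in order of role) in the 7 comparisons (columns), from edgeR. A dot marks an unadjusted p under 0.05. The H24h against H12h column holds 11 dots, 6 negative and 5 positive, and the R3h against H24h column holds 1.

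Counts summed over all copies of a symbol, an alternative chosen after seeing the data, gave 18 clock symbols to test. None was called overall or in any pairwise comparison in edgeR, where the overall background was 10.7% of 11207 symbols, and 6 of the 18 had an unadjusted overall p under 0.05, where the background was 31.9% of symbols. The summed cry1 level averaged 9.58 ± 2.31 FPKM in H3h, 8.48 ± 2.81 FPKM in H12h and 5.68 ± 0.66 FPKM in N (SD, n = 3 each). The log2 fold change of the summed counts was 1.22 ± 0.34 (adjusted p = 0.123) for H12h against N. Sums follow the deposited names, so cry1 includes CRY1 110537182, which is cry5 in the RefSeq table. Summed arntl averaged 2.57 ± 0.65 FPKM in H12h and 6.38 ± 1.34 FPKM in N, with a log2 fold change of -0.72 ± 0.29 (adjusted p = 0.252). Every H12h library was below every N library for summed arntl. Summed tef averaged 12.2 ± 2.8 FPKM in H24h and 22.2 ± 4.4 FPKM in H12h, with a log2 fold change of -1.09 ± 0.39 (adjusted p = 0.217).

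**Figure D3:**
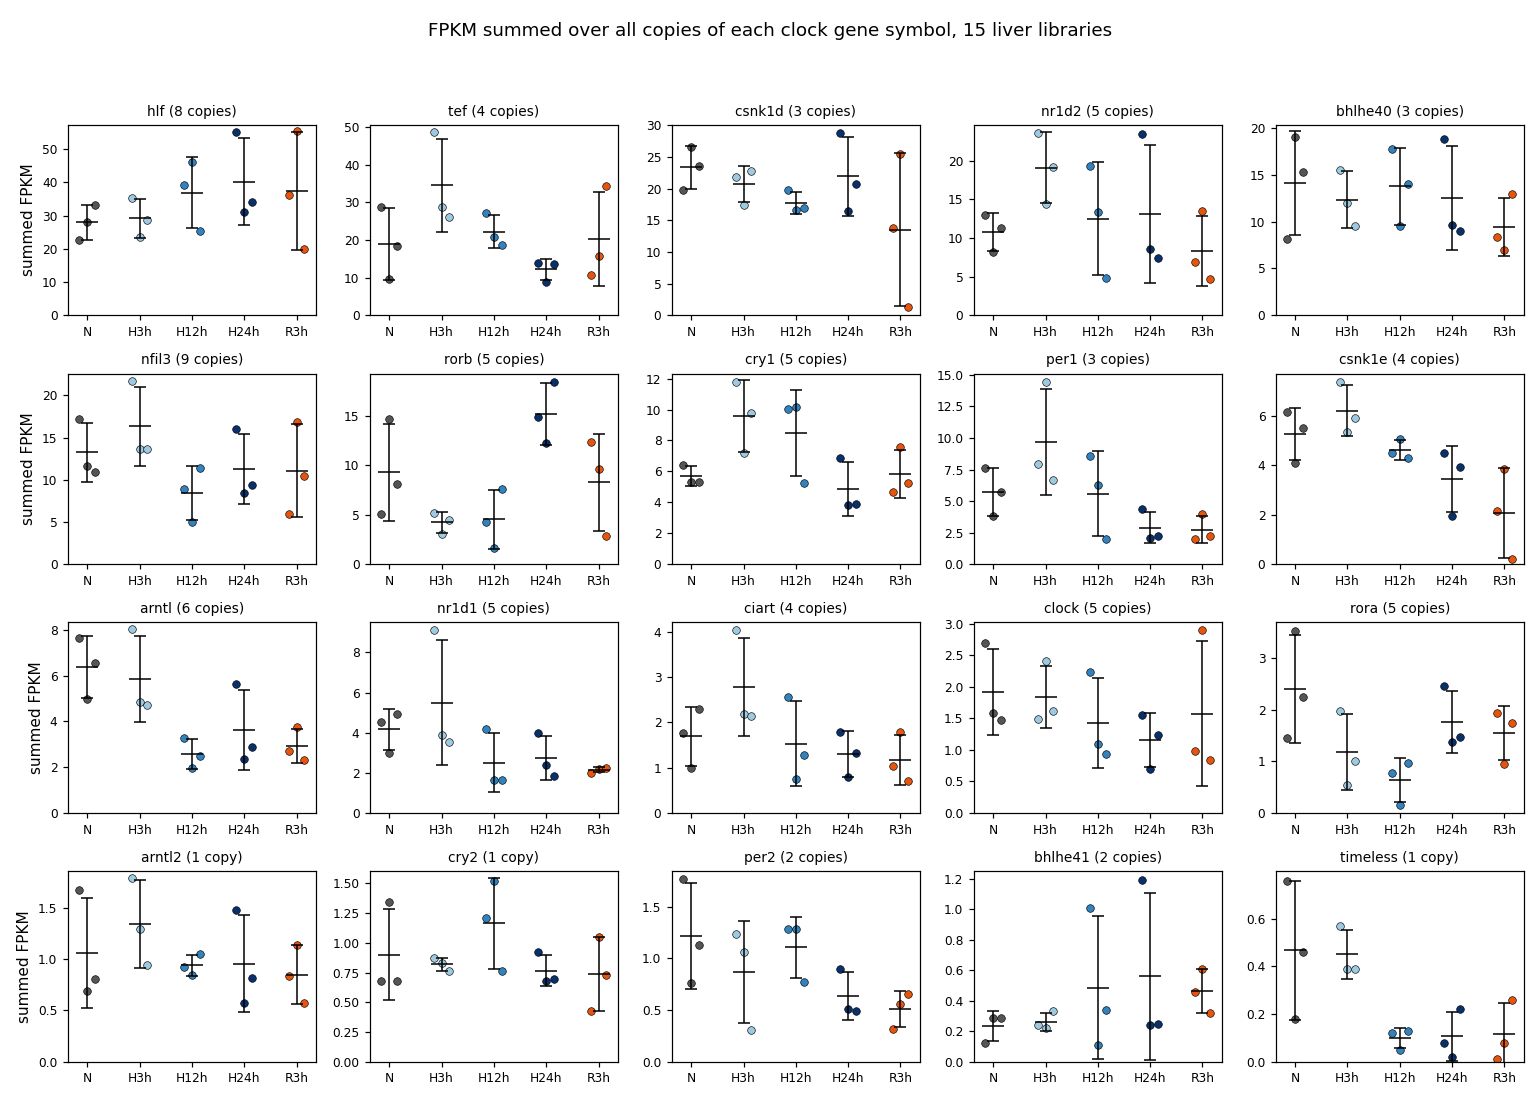
FPKM summed over all copies (y axis, linear, from 0) of the 20 symbols with a copy, by group (x axis), ordered by mean summed level. Points are libraries and bars are the mean with 1 SD, n = 3, and parts of bars under 0 are not drawn. Summed arntl is 1.96 to 3.26 FPKM in H12h and 4.97 to 7.64 FPKM in N.

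The copies of one symbol did not always lie on the same side of N. In the clock family the tested copy, 110533857, averaged 0.843 FPKM in H12h and 0.467 FPKM in N. CLOCK 100135915, under the filter and chosen after its values were seen, was at 0.18, 0.13 and 0.10 FPKM in H12h and 0.52, 0.52 and 0.49 FPKM in N. CLOCK 110521676, likewise, was at 0.14, 0.14 and 0.25 FPKM in H12h and 0.50, 0.33 and 0.39 FPKM in N. In FPKM both low copies were below N in every H12h library, while the tested copy was at or above N. Neither low copy passed for H12h against N in a fit with no filter on low values. There the log2 fold change was -1.28 ± 0.56 (edgeR adjusted p = 0.456) for CLOCK 100135915. For CLOCK 110521676 it was -0.67 ± 0.47 (adjusted p = 0.656). The difference between copies was not tested, and all 3 are at levels where 23 to 501 fragments a library carry the value.

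**Figure D4:**
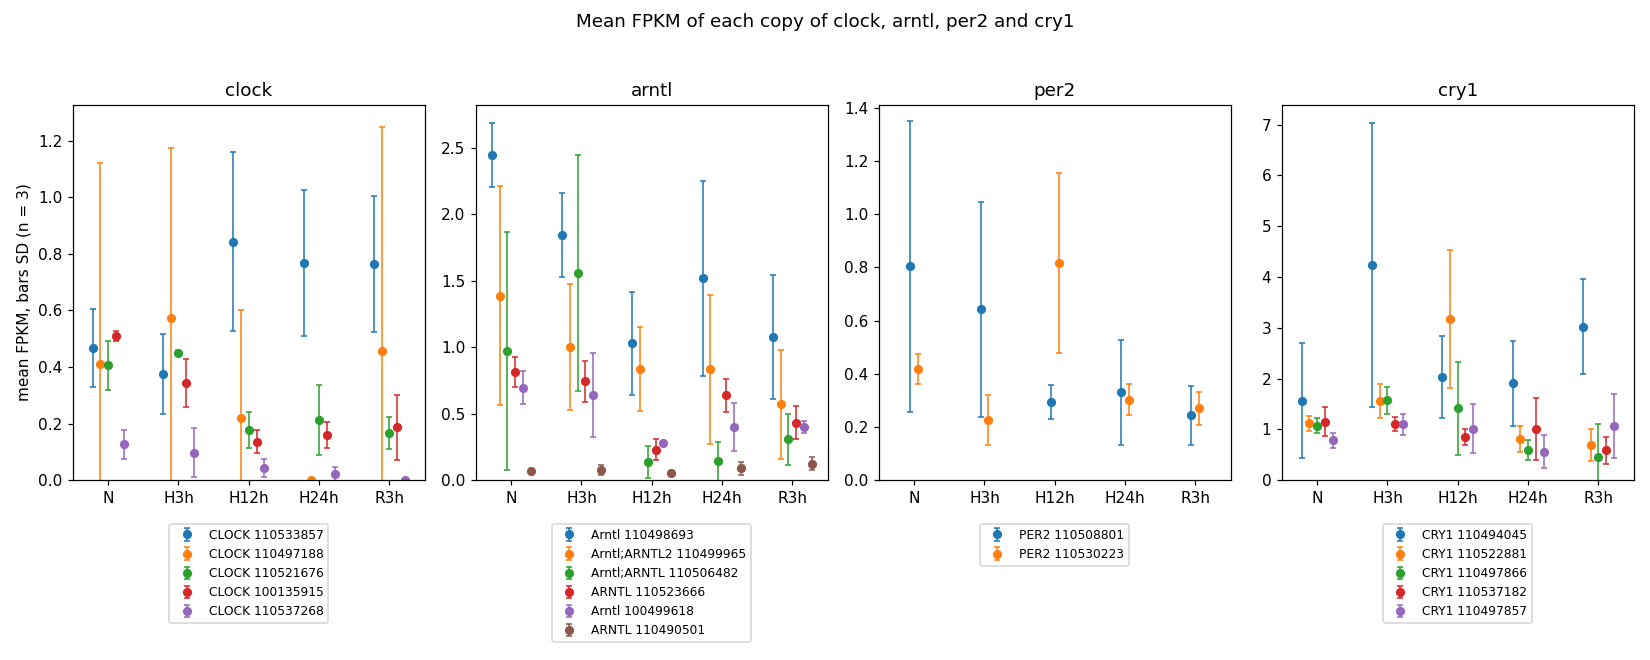
Mean FPKM (y axis, linear, from 0) of each copy of clock, arntl, per2 and cry1 by group (x axis). Points are means and bars are 1 SD, n = 3, and parts of bars under 0 are not drawn. In H12h CLOCK 110533857 averages 0.843 FPKM and CRY1 110522881 averages 3.17 FPKM, the highest H12h mean of their families.

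In the mammalian liver the transcripts of the ARNTL side and of its targets run at different phases. Log2 CPM values of Arntl 110498693 were set against those of the most abundant copy of 7 other symbols over the 15 libraries. With Nr1d1 110494235 Pearson's r was 0.587 (permutation p = 0.02, adjusted over 7 relations 0.14) and Spearman's rho was 0.625 (permutation p = 0.0141, adjusted 0.0986). The r was 0.508 without R3h replicate 3 and H12h replicate 2, the libraries farthest from the median of Arntl, and 0.484 for deviations from the group means. For CLOCK 110533857 r was -0.214 (permutation p = 0.444), for CRY1 110494045 -0.197 (p = 0.479) and for Tef 110538372 -0.387 (p = 0.155). For deviations from the group means r was 0.452, 0.33 and -0.25 in that order, so the sign turned for CLOCK and CRY1. For NR1D2 100135954 r was 0.483 (permutation p = 0.068), for Per1 110509930 0.359 (p = 0.188) and for nfil3 110523152 0.143 (p = 0.612). Their r for deviations from the group means was 0.593, 0.402 and 0.279. No relation passed after Benjamini-Hochberg adjustment.

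Several clock copies lie on the same stretch of a chromosome in the deposited coordinates, mostly with other genes between them. A csnk1e copy lies near a tef copy on each of chromosomes 12, 13, 20 and 23, with gaps of 197922, 191555, 327718 and 297935 bp. In that order 12, 14, 17 and 10 genes lie between them. On chromosome 20 the pair is CSNK1E 110499080, which averaged 0.0113 FPKM, and TEF 110499096, called above. On chromosome 23 TEF 110502868 averaged 8.14 FPKM and its neighbour CSNK1E 110502882 only 0.046 FPKM, whereas on chromosome 13 CSNK1E 110486430 averaged 2.31 FPKM and Tef 110486416 only 0.391 FPKM. Only on chromosome 12 were both members of the pair above the filter. Farther apart, Bhlhe41 110522659 and CRY1 110522881 on chromosome 1 have a gap of 894640 bp with 15 genes between. On chromosome 2 ARNTL2 110497784 lies between Bhlhe41 110497676 and CRY1 110497857, with gaps of 432292 and 337779 bp.

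A wider list of clock regulators (kinases, ubiquitin ligases, phosphatases and cofactors) had 74 of 89 genes tested. In edgeR 1 gene was called across the groups, CSNK2A1 110496662, a casein kinase 2 catalytic subunit, at 25.0, 9.02 and 19.9 FPKM in N, 30.8, 17.7 and 19.8 FPKM in H3h, 5.64, 5.62 and 8.85 FPKM in H12h, 8.52, 5.03 and 8.61 FPKM in H24h, and 6.33, 9.66 and 5.72 FPKM in R3h (overall adjusted p = 0.0344, where 7.24 percent of all genes were called). The N and H3h libraries were above nearly all others, and only N replicate 2 lay below R3h replicate 2. The call held in 4 of 15 fits that left out 1 library, those without N replicate 2, H12h replicate 3, R3h replicate 2 or R3h replicate 3, and was lost without any other, with an adjusted p of up to 0.1002. With the replicate number as a block its adjusted p was 0.059. None of the list was called in edgeR in any comparison with N, where 2 of 74 for H3h, 10 for H12h, 12 for H24h and 10 for R3h had an unadjusted p under 0.05. Those counts are 2.7%, 13.5%, 16.2% and 13.5% of the list, beside 2.19, 14.3, 19.7 and 26.6 percent of all genes. DESeq2 called 0, 2, 3 and 8 of the 74, beside 0.08, 4.73, 7.2 and 15.9 percent of all genes. The regulators with the smallest unadjusted p in edgeR were Noct 110488807 (log2 fold change 1.21 ± 0.46) and NCOR1 110533631 (-1.14 ± 0.44) for H3h against N, and Noct (1.67 ± 0.46) and USP2 110534861 (2.63 ± 0.79) for H12h against N. They were the SFPQ copy 110496149 (-1.25 ± 0.28) and Id2 100136777 (1.40 ± 0.44) for H24h against N, and CSNK1A1 110488565 (0.93 ± 0.26) and PPP1CB 110531833 (1.24 ± 0.36) for R3h against N. Noct (nocturnin) is known for its rhythmic expression in mouse liver, and NCOR1 is the corepressor that Rev-erb receptors recruit.

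A further list took genes known in mammalian liver as rhythmic outputs of the clock, with the symbols avp, prok2, opn4 and aanat2 added. It held 48 genes, 36 of them tested. In edgeR 6 were called in the test across groups, namely tsku 110504045, Klf10 110511366, Lpin1 110498384, Tspan4 110521908, Tspan4 110539104 and PCK1 110493880, with adjusted p-values between 0.0106 and 0.0482, beside 7.24 percent of all genes. Klf10 was among the tested genes only through its R3h level, as given below. When 1 library was left out, tsku passed in all 15 fits and Klf10 in 12, failing without H3h replicate 1, H3h replicate 2 or R3h replicate 2 (adjusted p up to 0.0674). Lpin1 (up to 0.0807) and Tspan4 110521908 (up to 0.0793) passed in 5 fits, those without N replicate 1, N replicate 2, H12h replicate 3, R3h replicate 2 or R3h replicate 3. Tspan4 110539104 (up to 0.0977) passed in 4 of those 5, failing without N replicate 1, and PCK1 (up to 0.122) in 4, failing without R3h replicate 2. The secreted protein gene tsku was at 11.5, 13.7 and 13.9 FPKM in N, 15.1, 6.91 and 10.6 FPKM in H3h, 7.87, 10.6 and 13.8 FPKM in H12h, 46.9, 43.9 and 52.1 FPKM in H24h, and 43.8, 25.8 and 20.7 FPKM in R3h. It was higher in every H24h and R3h library than in any library of the other groups, with log2 fold changes of 2.17 ± 0.38 (adjusted p = 0.0453) for H24h against N and 1.61 ± 0.37 (adjusted p = 0.0319) for R3h against N. It was the 1 gene of the 36 called for H24h against N, beside 0.2 percent of all genes, and 1 of the 4 called for R3h against N, beside 5.34 percent, all 4 of them higher. The H24h call held without N replicate 2 or any 1 R3h replicate and was lost without each of the other 11 libraries, with an adjusted p of up to 0.26. The R3h call was lost without N replicate 1, N replicate 3 or R3h replicate 1, with an adjusted p of up to 0.135. At an unadjusted p under 0.05 the list had 15 genes for H24h against N, 41.7% beside 19.7 percent of all genes, and 12 for R3h against N, 33.3% beside 26.6 percent.

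The other 3 genes higher for R3h against N were Klf10 and both Tspan4 copies. The transcription factor gene Klf10 was at 0.13, 0.32 and 0.60 FPKM in N, 0.16, 0.17 and 0.16 FPKM in H3h, 0.19, 0.05 and 0.47 FPKM in H12h, 0.36, 0.08 and 0.84 FPKM in H24h, and 1.30, 6.23 and 1.26 FPKM in R3h. Every R3h library exceeded all others, and the log2 fold change for R3h against N was 3.34 ± 0.87 (edgeR adjusted p = 0.0432). The Klf10 group means were 0.35, 0.163, 0.237 and 0.427 FPKM in N, H3h, H12h and H24h, and 2.93 FPKM in R3h. The gene passed the filter of 0.5 FPKM only through R3h, the group where it was high, so its calls rest on the same values. The R3h fold change depended on single libraries. That fold change was 2.28 (adjusted p = 0.082) without R3h replicate 2, and the call held in 5 of 15 fits that left out 1 library, those without H12h replicate 2 or 3, H24h replicate 2 or 3, or R3h replicate 3. The tetraspanin copies had log2 fold changes of 1.66 ± 0.44 (Tspan4 110521908, adjusted p = 0.0457) and 0.98 ± 0.26 (Tspan4 110539104, adjusted p = 0.0439) for R3h against N. Each held in 3 such fits, without R3h replicate 2, without R3h replicate 3, and without N replicate 2 for Tspan4 110521908 or H12h replicate 3 for Tspan4 110539104, and reached an adjusted p of 0.162 and 0.163. In a fit of the R3h and N libraries alone none of the 4 passed, with adjusted p-values of 0.24 to 0.277, and without N replicate 1 or without N replicate 3 none passed either, with 0.125 to 0.163.

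The remaining called outputs are genes of lipid and glucose metabolism and had unlike libraries within groups. Lpin1, a phosphatidate phosphatase gene, was at 5.97, 0.47 and 0.77 FPKM in N, 1.29, 1.93 and 1.03 FPKM in H3h, 6.19, 5.19 and 3.07 FPKM in H12h, 0.24, 0.19 and 0.07 FPKM in H24h, and 0.25, 1.35 and 0.18 FPKM in R3h. PCK1, a gluconeogenic enzyme gene, was at 236, 7.23 and 68.5 FPKM in N, 329, 241 and 267 FPKM in H3h, 617, 801 and 11.5 FPKM in H12h, 12.9, 14.5 and 7.50 FPKM in H24h, and 17.8, 29.5 and 67.8 FPKM in R3h. In both genes every H24h library was below every H3h library, while N replicates differed many-fold among themselves and PCK1 in H12h replicate 3 was far below its group mates. For H3h against N and H12h against N no output gene was called in edgeR, where 0.0 and 0.223 percent of all genes were called. Of the 36 tested, 1 and 7 had an unadjusted p under 0.05, 2.78% and 19.4%, beside 2.19 and 14.3 percent of all genes. DESeq2 called 0 and 3 of the 36, beside 0.08 and 4.73 percent of all genes. The output genes with the smallest unadjusted p in edgeR were CYP7A1 110508825 (log2 fold change -2.59 ± 0.94), the bile acid synthesis enzyme gene, and mafb 110527907 (-1.21 ± 0.60) for H3h against N. They were PPARD 100136658 (1.99 ± 0.51) and tsku 110507874 (1.47 ± 0.40) for H12h against N.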

How the data were processed

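Per the file headers, the authors deposited 1 table with a column of raw counts and a column of FPKM for each of the 15 libraries. TopHat2 2.1.1 and Bowtie2 2.2.8 are named in the submitters' processing notes. For the genome build, annotation, counting tool and use of strand, the sources used here give nothing. Coordinates are as deposited. There were 0 columns of per-sample values without a sample.

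Genes with a mean of at least 0.5 FPKM over the 15 libraries were tested, 17502 of 34965, and held at least 99.02% of each library's counts. Counts were fitted in edgeR 4.0.16 (R 4.3.3) with TMM scaling, 1 mean per group over all 15 libraries, and quasi-likelihood F-tests, two-sided, with Benjamini-Hochberg adjustment over all tested genes and a threshold of 0.05. Fold changes are first group over second. The overlap of groups was judged on TMM-scaled log counts in the counts of copies, and on FPKM beside printed FPKM. The fit was tested on simulated counts. Alternatives were DESeq2 1.42.0, RLE scaling, limma 3.58.1 on log2(FPKM + 1) and log2(FPKM + 0.1), no filter, only the groups compared, the replicate number as a block, and each library left out, plus copies summed per symbol, added after seeing the data.

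Values in every library are given for the most abundant tested copy of each symbol, for every copy called, and for the copy with the smallest unadjusted p in each comparison without a call. From the 2 wider lists called genes are named, or the 2 with the smallest unadjusted p. Other copies named were chosen after their values were seen. The members and lists were chosen with earlier results of these data known. Correlations used 100000 permutations, two-sided. Promoter and protein sequences were not used here.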

Additional observations from a re-analysis of the deposited data

How the results depend on the processing

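Clock copies called across groups numbered 2 in edgeR with TMM, 14 in DESeq2 and 4 with limma on log2(FPKM + 1). Of all 17502 tested genes these fits called 1267, 4502 and 2035. With copies summed per symbol, chosen after seeing the data, 0 clock symbols were called, where 10.7% of 11207 symbols were. DESeq2 also called 4 clock copies for H12h against N, 1 for H24h against N, 1 for R3h against N, 5 for H12h against H3h and 5 for H24h against H12h, where edgeR called 0. It called 4.73, 7.2, 15.9, 4.55 and 4.59 percent of all tested genes in that order. For R3h against N limma on log2(FPKM + 1) called 2, and no filter on low values 1, CLOCK 110537268 (npas2 in the RefSeq table), listed at 0 in every R3h library. Of all genes those fits called 1892 of 17502 and 698 of 34965. Leaving out 1 library in turn gave 0 to 8 clock copies across groups, 0 to 3 for H12h against N, 0 to 1 for H24h against N, 0 to 2 for R3h against N, 0 to 2 for H12h against H3h and 0 to 3 for H24h against H12h.

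Regulators called across groups numbered 1, against 16 in DESeq2, 8 with limma on log2(FPKM + 1), 4 with limma on log2(FPKM + 0.1) and 2 with no filter. Of all 17502 tested genes the first 4 fits called 1267, 4502, 2035 and 1206, and no filter called 1265 of 34965. Where edgeR called 0 regulators, DESeq2 called 2 for H12h against N, 3 for H24h against N and 8 for R3h against N, and limma called 5 and 2 for R3h against N with the larger and the smaller pseudocount. In these comparisons DESeq2 called 4.73, 7.2 and 15.9 percent of all tested genes, and limma 1892 and 1464 of the 17502. One library left out gave 0 to 8 across groups, 0 to 2 for H12h against N, 0 to 3 for H24h against N and 0 to 7 for R3h against N. Outputs called across groups numbered 6, against 17 in DESeq2, which also called 3 for H12h against N and 8 for H24h against N. The DESeq2 share of all tested genes was 25.7 percent across groups, 4.73 percent for H12h against N and 7.2 percent for H24h against N. The 1 output called for H24h against N became 0 with limma on log2(FPKM + 0.1), with no filter and in a fit of only the groups compared. The 4 called for R3h against N became 2, 2 and 0 in the same order. Over all genes these fits called 8, 12 and 0 for H24h against N and 1464, 698 and 0 for R3h against N. One library left out gave 1 to 14 across groups, 0 to 2 for H12h against N, 0 to 4 for H24h against N and 0 to 7 for R3h against N.

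With the replicate number as a block, 2 clock copies were called across the groups (CRY1 110522881 and the Arntl copy 110506482), and TEF 110499096 had an adjusted p of 0.0609. That Arntl copy passed the filter only through its N and H3h levels, as given above. Under the block 0 regulators were called across groups, and 0 outputs for H24h against N and 1 for R3h against N. Of all 17502 tested genes the block fit called 613 across groups, 0 for H24h against N and 628 for R3h against N. Libraries with the same number deviated from their group means with correlations of -0.206 to 0.367, so the numbers are not taken to pair libraries. DESeq2 gave no adjusted p across groups for Lpin1. The log2 fold change of Bhlhe40 110494249 for H12h against N, 0.35, was -0.184 and -0.231 with limma on log2(FPKM + 1) and log2(FPKM + 0.1), and -0.219 to 0.708 with 1 library left out, negative without H12h replicate 1. No other fold change printed for a copy above the filter changed sign under the alternatives run.

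Over all tested genes the overall count of 1267 was 613 to 4502 across settings and 199 to 2676 with 1 library left out. It was 935 for R3h against N (0 to 2777, and 7 to 2451), 39 for H12h against N (2 to 827, and 0 to 546), 35 for H24h against N (0 to 1261, and 0 to 685) and 3 for H12h against H3h (1 to 797, and 0 to 255). For H24h against H12h it was 0 (0 to 804, and 0 to 393), for R3h against H24h 0 (0 to 51, and 0 to 4) and for H3h against N 0 (0 to 14, and 0 to 0). The cause of these differences was not tested. With 3 libraries a group and low levels of many copies, values that did not pass do not show that groups are alike.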

Other observations

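The 32 clock copies under the filter averaged 0.00333 to 0.483 FPKM and are not among the 49 tested copies. They do enter the sums per symbol, the clock totals of each library and the fit with no filter. Among them are both copies of per2, whose product is a PER repressor. PER2 110530223 was at 0.40, 0.48 and 0.37 FPKM in N, 0.32, 0.23 and 0.13 FPKM in H3h, 0.96, 1.06 and 0.43 FPKM in H12h, 0.35, 0.24 and 0.32 FPKM in H24h, and 0.20, 0.29 and 0.32 FPKM in R3h. H12h replicates 1 and 2 were its highest libraries. In a fit with no filter on low values its overall adjusted p was 0.0182 (edgeR), and the log2 fold change was 2.51 ± 0.47 (adjusted p = 0.0533) for H12h against H3h and 1.57 ± 0.45 (adjusted p = 0.164) for H12h against N. PER2 110508801 was at 1.37, 0.28 and 0.76 FPKM in N, 0.92, 0.83 and 0.18 FPKM in H3h, 0.32, 0.22 and 0.34 FPKM in H12h, 0.55, 0.27 and 0.17 FPKM in H24h, and 0.12, 0.27 and 0.34 FPKM in R3h. Its mean in H12h was below its mean in N, and the difference between the PER2 copies was not tested.

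TIMELESS 110494196, known in mammals mainly for replication fork protection, was at 0.76, 0.18 and 0.46 FPKM in N, 0.57, 0.39 and 0.39 FPKM in H3h, 0.12, 0.05 and 0.13 FPKM in H12h, 0.08, 0.02 and 0.22 FPKM in H24h, and 0.01, 0.08 and 0.26 FPKM in R3h. All H12h libraries lay below all N and H3h libraries, and no overall difference passed without the filter (edgeR adjusted p = 0.343). Ciart 110487671 was listed at 0 in every H24h and R3h library, and also in N replicate 1, H3h replicate 2 and H12h replicate 2. It reached 0.21 FPKM in N, 0.54 FPKM in H3h and 0.3 FPKM in H12h, on 186 counts over the 15 libraries. Its groups did not differ without the filter (edgeR adjusted p = 0.1802). Of the bhlhe41 copies, which encode an E-box repressor, Bhlhe41 110522659 reached 0.64 FPKM in H12h replicate 1 and 0.62 FPKM in H24h replicate 1. Its other H12h libraries were at 0.11 and 0.06 FPKM and its other H24h libraries at 0.11 and 0.16 FPKM. Those lay within the N range of 0.06 to 0.18 FPKM. Its R3h libraries, at 0.30, 0.36 and 0.28 FPKM, all lay above its N libraries and its H3h libraries, at 0.15 to 0.19 FPKM. Without the filter the log2 fold change for R3h against N was 1.805 ± 0.83 (edgeR adjusted p = 0.269). No difference across the groups passed for it without the filter (edgeR adjusted p = 0.4675). These copies were chosen after their values were seen.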
